A study of Rattus norvegicus with 5 samples.

Results

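The deposited anti-PARP1 peak lists hold 435 places on rat chromosomes 1 to 20 where reads piled up to a height of at least 10. Height is the number of overlapping reads at the summit of a listed peak, with no scaling to sequencing depth. Peaks of at least 10 reads were taken from 3 libraries, those of high preference rats, of low preference rats and of saline replicate 2, and peaks that overlapped were merged into 1 region. Each library was then given the height of its tallest peak in each region. The 435 autosomal regions are 45.6% of the 954 regions that the same rule finds over all sequences but the mitochondrial one. Of the others, 445 lay on unplaced or random sequence and 74 on chromosome X. The height of saline replicate 1 played no part in the choice, so it is the only library whose heights are independent of the rule.

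Chromatin immunoprecipitation with sequencing (ChIP-seq) used tissue of the central amygdala from male Sprague Dawley rats. Each library pooled tissue from 2 rats. Cocaine rats were trained for 10 days in conditioned place preference, in which 15 mg/kg cocaine by intraperitoneal injection alternated with saline in sessions of 20 min. They were divided by their preference for the cocaine compartment in a test of 15 min, held 24 h after the last injection, and gave 1 high preference and 1 low preference library. Saline controls gave 2 libraries. Tissue was taken immediately after the test, so every group had been through it. An input library from low preference rats was not analysed here. Neither cocaine group had a replicate, so no difference between groups was tested. Pooling also hides the spread between animals.

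PARP1 is an abundant nuclear enzyme that binds broken DNA and nucleosomes, and builds chains of ADP-ribose on itself and on other chromatin proteins. Its binding to chromatin is known to accompany both DNA repair and changes in transcription. Pileups of reads in ChIP-seq can mark places where the protein was enriched. They can also arise where a genome assembly holds fewer copies of a repeated sequence than the animals do, or where PCR duplicates accumulate. An input library is the usual control for the former. No value here separates these sources, and their part in the heights was not tested. No genome or gene annotation of build rn4 was used, so regions are given by position alone, with coordinates as in the deposited lists.

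Estimated depth was 15594470 reads with high preference, 17552845 with low preference, and 6618031 and 17402838 in saline replicates 1 and 2. Saline replicate 1 thus had 0.380 times the estimated depth of saline replicate 2, and the 3 others are called the deeper libraries. Listed peaks of any height covered between 2.42% and 13.6% of autosomal sequence. The tall regions held between 0.107% and 0.251% of the summed height of autosomal listed peaks, and the highest share was that of saline replicate 1. Only 13.8% of the numbered pileups of saline replicate 1 were listed, against between 29.6% and 32.7% in the deeper libraries. The shares are therefore not on equal terms.

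Most members sat close to the threshold, and a small number stood far above it. In 229 regions (52.6%) the tallest of the deeper heights was between 10 and 14 reads. All 3 deeper libraries reached 10 reads in 186 regions, 2 of them did so in 83, and a single library did so in 166. None of those 166 rose above 19 reads, and 89 of them owed their place to saline replicate 2, 46 to the low preference library and 31 to the high preference library. At the other end, 70 regions reached at least 20 reads in all 3 deeper libraries, and 8 reached at least 100 in all 3. The median height was 11 reads with high preference, 11 with low preference, and 5 and 13 in saline replicates 1 and 2.

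Regions just inside and just outside the threshold had similar values. The 82 regions whose tallest deeper height was exactly 10 had a median length of 250.5 bp and a median of 3 reads in saline replicate 1, which listed 87.8% of them. The 104 regions that stopped at 9 reads had a median length of 293 bp and the same median of 3 reads, and saline replicate 1 listed 78.8% of them. Regions at 10 reads were merged from peaks of at least 10 reads, and those at 9 from peaks of at least 5. Their lengths and listed shares are therefore not on equal terms, and no more is read from them.

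Regions were ranked by the lowest of their 3 deeper heights, so that a region tall in 1 library alone does not rank high. The tallest by this measure lay at chr2:61089146-61090674. Over its 1528 bp the pileup rose to 647 reads with high preference, 705 with low preference, and 287 and 766 in saline replicates 1 and 2. A further region of the same chromosome, chr2:156715995-156716687, reached 563, 543, 225 and 638 reads in that order of libraries. The third, chr3:148550988-148551702, reached 479, 483, 206 and 612. In these regions saline replicate 2 was the highest and the shallow saline replicate 1 the lowest, with both cocaine libraries between them.

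The next by this measure lay at chr14:28434064-28434746, with 308, 329, 133 and 333 reads in the same order. It was followed by chr13:30490809-30491512 with 237, 262, 110 and 329 reads, and by chr10:29082088-29082756 with 211, 247, 99 and 246 reads. These 5 regions from the second to the sixth were of similar size, between 668 and 714 bp long. Lower in every library were chr17:11872068-11872410 with 123, 135, 40 and 145 reads, and 2 neighbours on chromosome 6. Of those, chr6:91432085-91432408 reached 108, 122, 52 and 142 reads, and chr6:91380504-91380969 reached 100, 92, 31 and 110 reads.

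The tenth by this measure, chr13:108742300-108742442, differed from the others in shape and in its balance between the saline libraries. It spanned only 142 bp and reached 97, 91, 64 and 108 reads. Its depth-scaled height in saline replicate 1 was 1.56 times that in saline replicate 2, with a 95% interval from 1.13 to 2.14 that covers counting error only. Among these 10 regions it was the only one whose interval for that ratio lay wholly above 1.

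**Figure D1:**
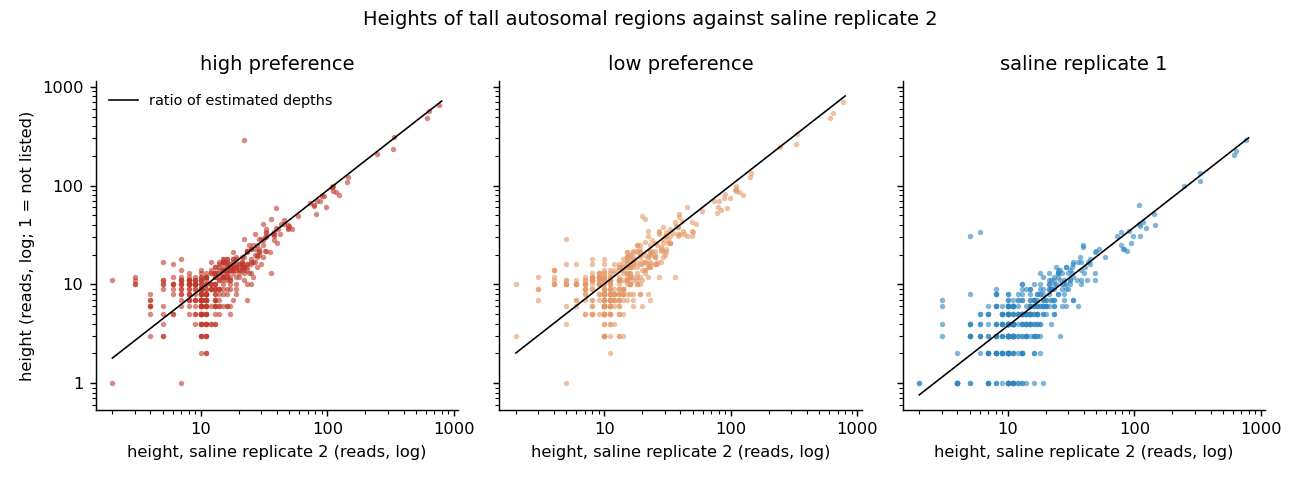
Height of each of the 435 regions in saline replicate 2 (x axis, reads, log scale) against its height with high preference, with low preference and in saline replicate 1 (y axis, reads, log scale), with the line marking the ratio of estimated depths and unlisted regions drawn at 1. The tallest regions lie near the line in each panel, lower ones scatter more widely, and 1 high preference point at 288 reads lies far above it.

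Saline replicate 1, which had no part in the choice of regions, listed a peak in 397 of the 435, or 91.3%. The same library listed a peak in 11.8% of all 55503 autosomal regions that reached 5 reads in a deeper library. Its listing rose with the height in the other libraries. It listed 9.85% of regions whose tallest deeper height was 5, 16.5% at 6, 32.8% at 7, 57.0% at 8 and 78.8% at 9. Among members it listed 193 of 229 (84.3%, exact binomial 95% interval 78.9% to 88.7%) at 10 to 14 reads and 72 of 74 (97.3%, 90.6% to 99.7%) at 15 to 19 reads. Every region of at least 20 reads was listed, which was 102 of 102 up to 49 reads, 15 of 15 up to 99 reads and 15 of 15 above. The interval limits cover counting error only. Regions of 5 to 9 reads were merged from peaks of at least 5 reads, and members from peaks of at least 10. Shares below and above the threshold are therefore not on equal terms.

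The 38 regions that saline replicate 1 did not list were low and short. None exceeded 19 reads, 36 had at most 14, and their median length was 178.5 bp. The tallest was chr7:101749661-101749739, with 8 reads with high preference, 8 with low preference and 19 in saline replicate 2. The next were chr4:76373660-76373741 with 6, 10 and 16 reads and chr13:30487016-30487113 with 9, 14 and 14 reads. The deeper libraries chose the regions, so few were unlisted there: 2 with high preference, 1 with low preference and 0 in saline replicate 2. The high preference library did not list chr5:8784604-8784901, where the low preference library had 10 reads and saline replicate 2 had 2, or chr13:19209445-19209530, where they had 10 and 7. The low preference library did not list chr6:4370558-4371053, where the high preference library had 11 reads.

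Heights in saline replicate 1 followed its estimated depth. Over the 70 regions of at least 20 reads in all deeper libraries, the median of its unscaled height over that of saline replicate 2 was 0.368 (quartiles 0.315 and 0.451), beside a depth ratio of 0.380. In the 8 regions of at least 100 reads in all 3 deeper libraries the ratio ran from 0.276 to 0.402. In the 15 regions of at least 100 reads in any deeper library it ran more widely, from 0.182 to 0.593. Saline replicate 1 nevertheless had the highest unscaled height of all 4 libraries in 2 regions. One was chr18:35921527-35921589, the shortest of all members at 62 bp, with 34 reads against 16 in each cocaine library and 6 in saline replicate 2. The other was chr2:234226811-234226987, 176 bp long, with 31 reads against 17 with high preference, 29 with low preference and 5 in the other saline library.

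Tall regions were spread unevenly over the chromosomes. Chromosome 13 held 72 of them, chromosome 16 held 71 and chromosome 18 held 39. Together these 3 chromosomes carried 182 regions (41.8%) on 11.3% of autosomal length. Chromosome 4 held 34 and chromosome 9 held 30. At the low end were chromosome 11 with 2 regions, chromosome 19 with 4, and chromosomes 3 and 10 with 5 each. Per 100 Mb the number ran from 2.28 to 78.7, with a median of 10.4 over the 20 chromosomes.

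Most of this unevenness came from a few crowded loci. When regions at most 100 kb apart were counted as 1 locus, the 435 regions became 151 loci, and the number per 100 Mb ran only from 2.28 to 16.3 with a median of 5.51. The 72 regions of chromosome 13 fell into 8 loci, the 71 of chromosome 16 into 8 and the 39 of chromosome 18 into 3. On chromosome 16, 67 regions (94.4%) lay in 5 loci between positions 20400078 and 21611122. On chromosome 9, 29 of 30 lay between positions 593954 and 1236663, near the start of the chromosome. Over all chromosomes 35 regions (8.05%) lay within 2 Mb of an end of the chromosome, where 3.13% of the autosomal length lies. Of these 35, 29 were the regions near the start of chromosome 9, so the share does not describe chromosome ends in general.

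**Figure D2:**
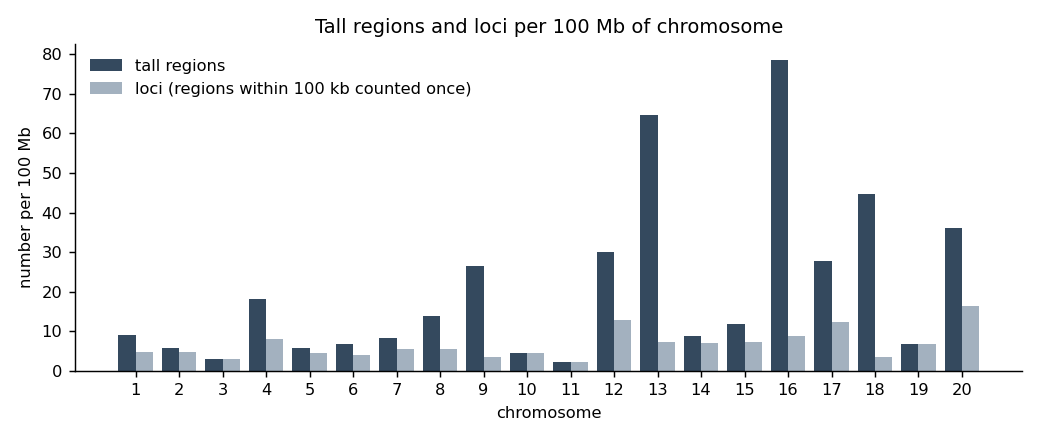
Number per 100 Mb of chromosome (y axis) for each of chromosomes 1 to 20 (x axis), as single tall regions (dark bars) and as loci in which regions at most 100 kb apart count once (light bars). Chromosome 16 has the highest dark bar at 78.7, while no light bar exceeds 16.3.

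Of the 151 loci, 105 held a single region and 46 held a group of at least 2. The groups contained 330 regions, or 75.9% of the members. Neighbours were often very close: 135 of the 415 gaps between neighbours on a chromosome were under 1 kb, 230 were under 10 kb, and the median gap was 5271 bp. Only 10 groups held at least 10 regions each, but they contained 210 regions (48.3%) on 1.23 Mb in all, or 0.0480% of autosomal length.

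The largest group, chr13:30424445-30493217, held 41 regions in 68772 bp, or 5.96 per 10 kb. It includes the region of 237, 262, 110 and 329 reads described above, but its members had median heights of only 10 reads with high preference, 11 with low preference, and 5 and 13 in saline replicates 1 and 2. Saline replicate 1 listed 36 of the 41. The background of the group was raised as well. Listed peaks of the interval that are no members summed, per kb, to 2.98, 2.76, 4.43 and 3.43 times the mean of the chromosome in that order of libraries. That mean also counts listed peaks only, so such values are not on equal terms between saline replicate 1 and the deeper libraries.

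The next, chr18:38706238-38799418, held 37 regions in 93180 bp with median heights of 13, 11, 5 and 14 reads, and saline replicate 1 listed all 37. Its other listed peaks stood at 2.25, 1.78, 3.76 and 2.40 times the mean of the chromosome. Its tallest member had 37 reads with high preference, 43 with low preference, and 11 and 49 in saline replicates 1 and 2. No member of this group therefore came near the heights of the tallest regions, although the group holds nearly as many regions as the one on chromosome 13.

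The third, chr16:20736739-20932664, held 26 regions with medians of 12, 12.5, 6 and 14.5 reads. The fourth, chr13:19142123-19231083, held 25 with medians of 11, 11, 3 and 14 reads, and its tallest member reached 87, 87, 43 and 117 reads. The fifth, chr16:20400078-20628047, held 24 with medians of 11, 11, 5 and 14 reads. The groups differed in their surroundings. Other listed peaks in the fifth stood at 0.657, 0.602, 0.743 and 0.647 times the mean of the chromosome, below 1 in every library, whereas those of the fourth stood at 1.59, 1.44, 1.98 and 1.64 times. The interval of the fifth includes a gap of 93550 bp without a member, and the part of that gap in its values was not tested.

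Heights inside a group kept part of their order from library to library, to a degree that differed between groups and pairs. The rank correlation of heights between the saline libraries was 0.651 over the 41 regions of the largest group, 0.785 over 37, 0.803 over 26, 0.725 over 25 and 0.503 over 24 in the 5 groups in turn. Over all pairs of libraries the lowest was 0.360, for low preference against saline replicate 1 in the fifth group. The highest was 0.891, for high preference against saline replicate 1 in the third. These are descriptions across regions, which share their library and its depth and are not replicates.

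One group of 10, chr4:75830753-75906839, had higher medians than the 5 largest groups, at 28.5, 31, 11 and 26 reads, and its members ran from 9 to 46 reads with high preference, 10 to 61 with low preference, and 2 to 24 and 7 to 45 in saline replicates 1 and 2. It was divided by a gap of 53128 bp. Its other listed peaks stood at only 0.275, 0.102, 0.139 and 0.192 times the mean of the chromosome, below those of the 5 largest groups. These values run over the whole interval with that gap included, and the part of the gap in them was not tested. This group was chosen for description after its values were seen.

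**Figure D3:**
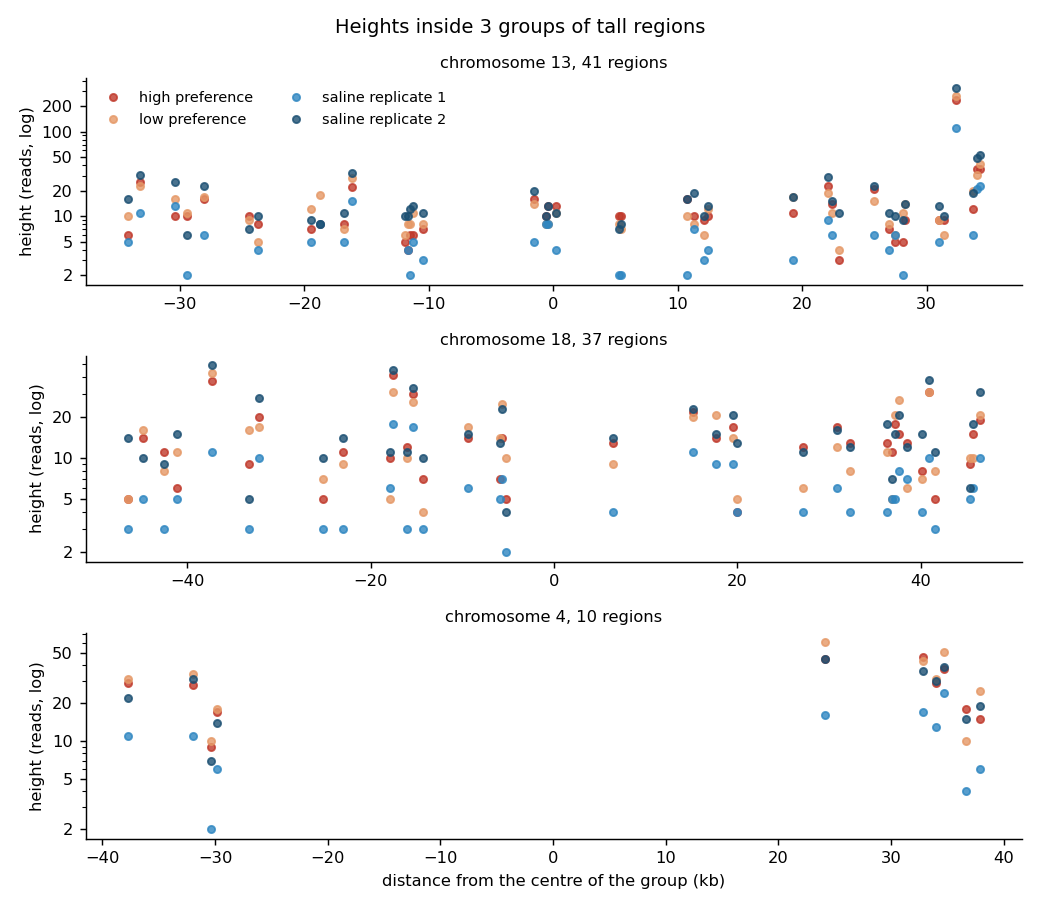
Height of each region (y axis, reads, log scale) against its distance from the centre of its group (x axis, kb) for the groups of 41, 37 and 10 regions on chromosomes 13, 18 and 4, with 1 point per library and unlisted regions not drawn. Saline replicate 1 is mostly the lowest, and the chromosome 4 group is divided by an empty stretch of 53128 bp.

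Single regions were more often tall than grouped ones. At least 20 reads in a deeper library were reached by 41.0% of the 105 single regions, 28.3% of the 120 in groups of 2 to 9, and 26.2% of the 210 in groups of at least 10. Of the 15 regions of at least 100 reads, 10 were single, 3 lay in groups of 2 to 9 and 2 in the larger groups. Since the rule used these heights, the shares are a description. The library outside the rule listed similar shares of the 3 classes, at 89.5%, 88.3% and 93.8%. Within 5 kb on either side, the tallest peak that was no member had a median height of 5 reads around single regions, 7 around groups of 2 to 9 and 9 around the larger groups. Such a peak stood at 3 reads or less around 15 single regions (14.3%) but around only 3 regions (1.43%) of the larger groups. A peak of at least 10 reads in a deeper library is itself a member, so these flanking heights could not exceed 9. Neighbouring members can also share the same flanking peak.

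Tall regions were longer than other regions, and their lengths spread widely. The median was 344 bp (quartiles 215.5 and 553.5), beside a median of 147 bp over all autosomal regions of at least 5 reads. Those were merged from peaks of at least 5 reads and members from peaks of at least 10, so the lengths are not on equal terms. The longest, chr16:20925754-20931475, extended over 5721 bp with heights of only 22, 21, 10 and 23 reads. It was followed by chr17:4282581-4285828 at 3247 bp with 15, 11, 5 and 13 reads, and by chr8:42087670-42090694 at 3024 bp with 17, 20, 8 and 25 reads. In the first of them the tallest peaks of the 4 libraries were 1003, 1627, 563 and 1615 bp long. Its length thus came from a chain of overlapping peaks of the deeper libraries, whose summits lay up to 2664 bp apart.

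The shortest regions after the 62 bp one were chr7:129649219-129649283 at 64 bp with 6, 14 and 4 reads in the deeper libraries and no listed peak in saline replicate 1, and chr4:150573387-150573454 at 67 bp with 11, 6, 2 and 8 reads. In both, 1 cocaine library alone reached the threshold. Short regions as a class were low and less often found in the library outside the rule. The 57 regions under 150 bp had a median tallest height of 11 reads, and saline replicate 1 listed 73.7% of them. The 91 regions of 500 to 1000 bp had a median of 20 reads and were listed in 98.9%, and the 41 longer ones had a median of 20 reads and were all listed.

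Length and height were related to a degree that differed with the measure. The Spearman rank correlation between region length and the tallest deeper height was 0.385 over the 435 regions. Taken library by library it was 0.414 with high preference, 0.442 with low preference, and 0.442 and 0.396 in saline replicates 1 and 2. The length of each library's own tallest peak correlated with its height at 0.473, 0.460, 0.620 and 0.400 in that order, over listed regions. The highest value was that of saline replicate 1, the library outside the rule. Only peaks of at least 10 reads were merged, so a lower peak of another library can reach beyond its region. Over the 70 regions of at least 20 reads in all deeper libraries, region length and tallest deeper height correlated at only 0.0819. Their median length was 541 bp. Many regions were also broken into several listed peaks. That was so for 207 regions with high preference, 183 with low preference, and 244 and 154 in saline replicates 1 and 2.

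**Figure D4:**
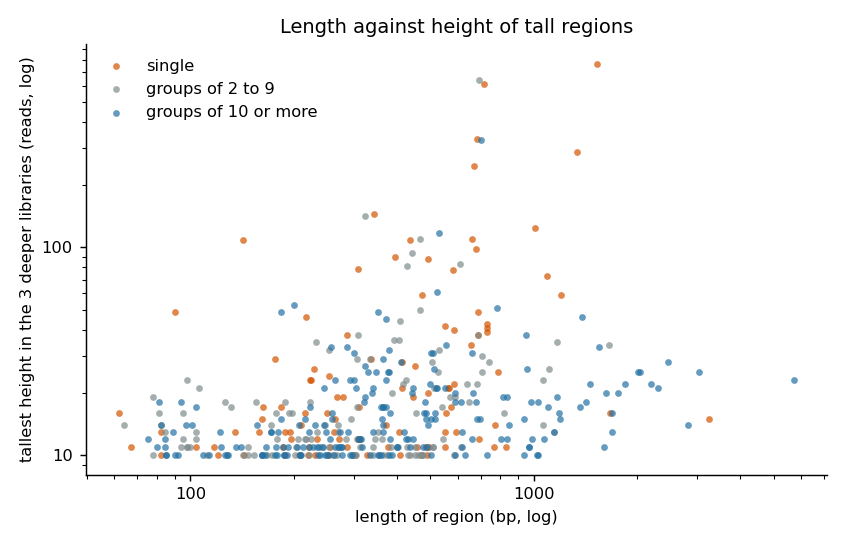
Tallest height in the 3 deeper libraries (y axis, reads, log scale) against region length (x axis, bp, log scale) for the 435 regions, coloured by whether the region is single, in a group of 2 to 9 or in a group of at least 10. The tallest region measures 1528 bp, and the longest region, of 5721 bp, reaches 23 reads.

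Summits often lay close together in the deeper libraries. Of the 432 regions with a summit in all 3, 186 (43.1%) had them within 25 bp of each other, and the median range was 44 bp. In the 70 tallest the median range was 12 bp and 42 had summits within 25 bp. The range grew with length, from a median of 14.5 bp in regions under 150 bp to 516 bp in those of at least 1000 bp. A short region leaves less room between summits, so this trend is in part set by the measure.

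Heights were scaled by estimated depth before libraries were compared. Over the 70 regions of at least 20 reads in all deeper libraries, 49 stayed within 1.5-fold across all 4 libraries and 66 within 2-fold. Over all 435, 288 stayed within 2-fold. The spread between libraries was set beside counting error as a description, since the rule used 3 of the 4 heights. The median ratio of variance to counting variance over the 4 libraries was 0.810 in the 70 regions, where counting error alone has a median of 0.789. It exceeded 2.60, the upper 5% point of counting error, in 8 of the 70 (11.4%) and in 38 of the 435 (8.74%). Summits were chosen as maxima and PCR copies are not independent, so this comparison is approximate.

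Constancy was ranked by the standard deviation of log2 scaled heights over the 4 libraries, which is not set against counting error. Among those 70 regions the most constant was chr8:72761620-72761906, with 34, 38, 14 and 38 reads. It was followed by chr14:28434064-28434746 and chr10:29082088-29082756, both among the tallest. The least constant was chr1:162340788-162342127, with 288, 35, 4 and 22 reads, where the high preference library stood 9.26 times as high as the low preference library after scaling (95% interval 6.51 to 13.6, counting error only). Next among the 70 came chr7:101749872-101750180 with 20, 38, 6 and 29 reads and chr4:5742660-5744318 with 34, 26, 7 and 33 reads. Their ratios of variance to counting variance were 2.13 and 1.47, both under 2.60. By that ratio the order differed: after the chromosome 1 region came chr3:148550988-148551702, at 5.52. Apart from the chromosome 1 region, no member of the 70 lay 2-fold apart in any of the 4 ratios examined.

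A fixed rule of size was applied to all 435 regions, calling a region apart where scaled heights differed at least 2-fold and heights under 3 counted as 3. The high preference library was higher than the low preference library in 32 regions and lower in 17, or 49 in all (11.3%), beside 2.7% of all autosomal regions of at least 5 reads. Higher alone was 2.16% and lower alone 0.533% of that background. Against saline replicate 2 the high preference library was higher in 17 and lower in 38, or 55 in all, beside a background of 2.7% (2.1% higher, 0.6% lower). The low preference library was higher than saline replicate 2 in 21 and lower in 46, or 67 in all, beside a background of 4.76% (0.499% higher, 4.26% lower). The rule that chose the regions used these same heights, so nothing is read from these counts. Without scaling the balance in the first comparison turned to 25 higher and 34 lower.

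Regions chosen by a library outside the ratio are free of part of that choice. Of the 379 regions found from saline replicate 2 alone, 27 were apart between the cocaine libraries, beside 0.956% of the background chosen likewise. Of 333 found from the low preference library, 27 were apart between the high preference library and saline replicate 2, beside 0.902%. Of 308 found from the high preference library, 24 were apart between the low preference library and saline replicate 2, beside 1.7%. Background regions are mostly 5 reads high, where the floor of 3 leaves little room for a 2-fold call, so the shares are not on equal terms.

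Both saline libraries gave a measure of spread within 1 group. Saline replicate 1 was higher than saline replicate 2 in 23 regions and lower in 14, or 37 in all (8.51%), and saline replicate 1 did not help to choose the regions. The background was 58.5%, with 58.5% higher and 0.0234% lower. That background is set by the floor: 3 reads in the shallow library scale to more than 2 times the same 3 reads in the deep one, so a region that saline replicate 1 does not list can be called higher in it. Under a rule added after this was seen, by which the higher library had to list at least 3 reads, the count was 21 higher and 14 lower, beside a background of 1.1%. The same added rule left the counts of the 3 other ratios at 49, 55 and 67. Among 365 regions chosen by the cocaine libraries alone, 41 were apart between the saline libraries by the original rule, beside a background of 92.6%. That is 11.2%, against 7.12%, 8.11% and 7.79% for the 3 other ratios, whose regions were each found from 1 library. The saline set was found from both cocaine libraries and kept the floor that can raise saline replicate 1. The shares are therefore not on equal terms.

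Among regions of at least 20 reads in 1 of the 2 libraries compared, the chromosome 1 region of 288 reads was the furthest apart for the high preference library over both the low preference library and saline replicate 2. The low preference library exceeded the high preference library most at chr8:112352317-112352407, 90 bp long, with 16, 49, 6 and 20 reads. The high preference library fell furthest below saline replicate 2 at chr1:215064964-215065189, with 7, 20, 5 and 23 reads. The low preference library did so at chr20:36897227-36897614, with 14, 6, 7 and 20 reads. Between the saline libraries the extremes were the chromosome 2 region of 31 against 5 reads, and chr13:19190690-19191202, where saline replicate 1 had 3 reads and saline replicate 2 had 26.

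No region had both cocaine libraries at least 2-fold above both saline ones, beside a background of 0%. The largest such ratio was 1.58. Such a call could not arise in the 229 regions whose tallest deeper height was 10 to 14 reads. It was also out of reach in 55085 of the 55503 background regions, which reached only 5 to 9 reads. The floor of 3 in the shallow saline replicate 1 scales too high there. Neither 0 is therefore on equal terms with the counts of lower regions. Both cocaine libraries were at least 2-fold lower in 7 regions, beside a background of 0.436%. These 7 were low, with 10 to 17 reads in saline replicate 2, 0 to 6 in saline replicate 1, 2 to 5 in the high preference library and 2 to 6 in the low preference library. All lay in groups, and their median length was 147 bp. In 2 of them saline replicate 1 counted as high only because a height under 3 was set to 3. Under the added rule 5 regions were left, beside a background of 0.0306%.

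**Figure D5:**
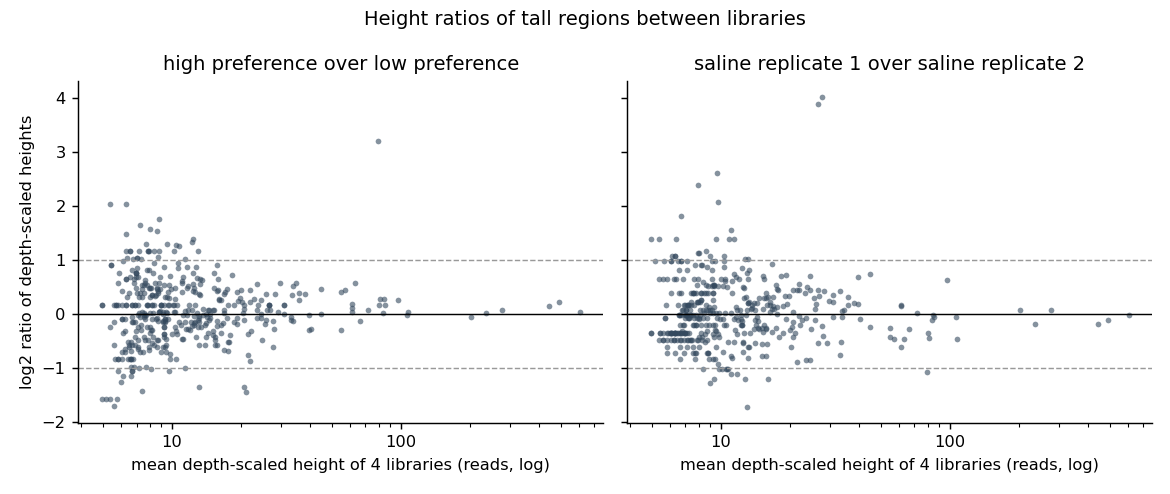
Log2 ratio of depth-scaled heights (y axis) against the mean depth-scaled height of the 4 libraries (x axis, reads, log scale) for high over low preference and for saline replicate 1 over saline replicate 2, with dashed lines at 2-fold. In both panels the points narrow towards 0 as height grows, and the chromosome 1 region of 288 reads stands alone in the left panel.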

How the data were processed

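The deposited data were peak lists, 1 for each of 4 libraries. Build rn4, Bowtie 0.12.7 and Picard 1.37 are listed, with no roles, per the submitters' processing notes. For the peak caller and the handling of duplicates, nothing is given in the sources used here. The deposited column 6 has no name in the file headers and was read as signal, the unscaled pileup height in reads. Depth was estimated by adding up all listed heights and counting 1 read for every running number missing from the list. A listed peak can hold more reads than its summit height, so the estimate can fall short. Whether it does so equally in all libraries was not tested. Members and lists were chosen with earlier results of these data known.

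Regions, groups (gaps of at most 100 kb), rank correlations and 2-fold calls were computed in Python 3.11.15 with numpy 2.4.6, pandas 2.3.3 and scipy 1.17.1. With 1 library per cocaine group no test was run. The design set heights under 3 to 3 in either library. That let an unlisted library count as the higher one, so a stricter rule, chosen after seeing the data, is reported beside the planned one, which stays the main result. Regions named were the 10 tallest, the 5 largest groups, the 3 longest and shortest, the extremes of each ratio, the 3 most and least constant, and the 3 tallest not listed in saline replicate 1. Scripts were tested on simulated data.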

Additional observations from a re-analysis of the deposited data

How the results depend on the processing

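Of 85 alternatives to 13 results, 45 gave values close to the reported ones, 37 moved them and 3 took a median ratio to the other side of 1. The number of regions was 807 at a minimum of 8 reads, 134 at 20 reads and 186 when all 3 deeper libraries had to reach 10. In that order the share listed in saline replicate 1 was 77.2%, 100% and 100%, and the number of groups was 84, 19 and 21. The share of regions in groups was 59.7% at 20 reads, 64.5% with all 3 libraries, 68.0% when peaks up to 200 bp apart were merged, 66.9% with gaps of at most 10 kb and 81.1% with gaps of at most 1 Mb. The correlation of length with height was 0.124 at 20 reads, 0.0819 with all 3 libraries, 0.409 with wider merging and 0.331 without saline replicate 2.

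At 20 reads the regions 2-fold apart were 5 for high against low preference, 6 for high preference against saline replicate 2, 8 for low preference against saline replicate 2 and 5 between the saline libraries, and none was lower in both cocaine libraries (0). With regions chosen by a library in neither arm the first 3 counts were 27, 27 and 24. With heights under 5 set to 5, the high preference library was apart from saline replicate 2 in 35 regions, 16 higher and 19 lower, and the saline median ratio turned from 0.986 to 1.20. That floor gave 30 higher and 8 lower for high against low preference.

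Scaling decided the saline ratio. Without scaling 342 regions were apart between the saline libraries, 4 higher and 338 lower, with a median ratio of 0.375. Scaling by the sum of listed heights gave 229, all higher, with a median of 2.04. For high against low preference that scaling gave 38 higher and 12 lower, while no scaling turned the balance to 25 and 34 and the median to 0.920. At 20 reads it was 2 higher and 3 lower. Regions higher in both cocaine libraries numbered 2 without scaling, and regions lower in both numbered 0 without scaling and 16 by the sum of listed heights. When 1 saline library was left out, between 2 and 8 were higher and between 15 and 18 lower. Leaving 1 out removes a condition, so these counts could not fall, and their rise alone is no measure of stability. The reported counts apply only with both saline libraries. The rule that the higher library lists at least 3 reads was added after seeing the data. It changed 37 to 35 between the saline libraries and 7 to 5 for regions lower in both cocaine libraries.

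No paired analysis was possible because each cocaine group has 1 library and the values come from no test. Depth limits saline replicate 1, in which a region of 10 reads elsewhere had a median of 3.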
